A study of Mus musculus with 12 samples.

Results

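Mitochondria keep their own ribosome, which translates the few messages of mitochondrial DNA, all of them for subunits of the respiratory chain and ATP synthase. Its proteins are made from nuclear genes and imported, and in mice their names begin with Mrpl for the large subunit (the side that joins amino acids) and Mrps for the small subunit (the side that reads the message). Many descend from bacterial ribosomal proteins, and others have no bacterial counterpart. The transcripts of these genes were followed in astrocytes of mice with normal, reduced or no CD38, an enzyme that consumes NAD+, the cofactor that carries electrons to the respiratory chain.

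The genes were chosen by name, as every gene called Mrpl or Mrps followed by a digit with a mean of at least 5 TPM (a gene's share of a library's transcripts, corrected for transcript length and put on 1 total for all libraries) over 12 libraries. The rule took 78 of 20614 genes, 49 named for the large subunit and 29 for the small. All 78 genes with such a name passed the level, and the closest to it were Mrpl1 at a mean of 11.04 TPM, Mrpl19 at 16.9 and Mrpl47 at 19.1. Names are not places: Mrps30 and Mrps18a sit in the large subunit of the assembled ribosome, and the product of Mrps36 is now known as a part of an enzyme complex of the citric acid cycle.

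The libraries came from male mice aged 12 to 14 months, with 3 of CD38+/+, 3 of CD38+/- and 6 of CD38-/- genotype. The mutant allele (B6.129P2-Cd38tm1Lnd/J, on C57BL/6J) disrupts exons 2 and 3 in every cell of the body, so a difference need not arise in the astrocytes themselves. Astrocytes were pulled down from dissociated midbrain tissue (striatum, thalamus and substantia nigra, per the study's methods) with beads against ACSA-2, after beads had removed endothelial cells, myelin and CD11b-positive microglia. No label ties a library to 1 animal, so p-values measure the spread between libraries.

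Cd38 itself was at 105 to 149 TPM in CD38+/+, 90.4 to 90.8 in CD38+/- and 8.54 to 21.9 in CD38-/- libraries. The summed level of 10 astrocyte markers lay between 10640 and 15221 TPM in CD38+/+, 16440 and 18162 in CD38+/- and 12183 and 15770 in CD38-/- libraries, against 4.49 to 39.6 TPM for 6 microglial and 38.8 to 124 TPM for 9 neuronal markers in any library. Tmem119, a defining microglial marker, was at 0 in each of the CD38+/+ libraries and reached 9.28 TPM elsewhere, and another of the 6 was at 0 there too. Other sums were large: 6 oligodendrocyte markers at 1295 to 7183, 3089 to 11008 and 3173 to 17799 TPM, and 4 erythroid globin genes at 7726 to 34648, 3211 to 6429 and 3791 to 15323 TPM, each in the order CD38+/+, CD38+/- and CD38-/-. In that order, 3 ependymal markers summed to 1335 to 2808, 1442 to 1771 and 1876 to 2901 TPM, and 3 choroid plexus markers to 34.7 to 284, 131 to 6905 and 170.0 to 1807 TPM. Over all libraries 5 endothelial markers summed to 139 to 736 TPM and 5 mural and fibroblast markers to 155 to 309 TPM. The microglial sum was higher in every CD38-/- library (from 17.94 TPM) than in every CD38+/+ library (up to 17.93 TPM), and its part in the comparisons was not tested. The globin sum was higher in every CD38+/+ than in every CD38+/- library, as were the ribosome sums below, and its part in them was not tested. The CD38+/+ libraries also listed 201 to 346 of 11861 tested genes at 0, against 11 to 21 in the others.

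Before the levels, the start regions of 6 genes are shown, since a set of genes that work in 1 machine may share letters there. They are the 5 genes called as changed below and Mrpl39, the gene with the most positive log2 fold change. Each run holds 250 bases before and 50 after the transcription start in RefSeq (GRCm38.p6), on the gene's strand, and capitals mark the core of an ETS factor site (CCGGAAG), 1 arm of the site of the respiratory factor NRF1 (GCGCATGC) or the core of a YY1 site (AAGATGGC), on either strand.
Mrpl41, chr2:24975049-24975348, minus strand: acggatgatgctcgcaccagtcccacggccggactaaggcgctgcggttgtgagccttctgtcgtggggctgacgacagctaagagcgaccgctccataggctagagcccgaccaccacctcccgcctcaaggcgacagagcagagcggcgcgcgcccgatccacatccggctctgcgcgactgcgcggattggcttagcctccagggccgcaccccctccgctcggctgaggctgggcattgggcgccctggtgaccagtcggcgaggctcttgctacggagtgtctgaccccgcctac
Mrpl51, chr6:125191950-125192249, plus strand: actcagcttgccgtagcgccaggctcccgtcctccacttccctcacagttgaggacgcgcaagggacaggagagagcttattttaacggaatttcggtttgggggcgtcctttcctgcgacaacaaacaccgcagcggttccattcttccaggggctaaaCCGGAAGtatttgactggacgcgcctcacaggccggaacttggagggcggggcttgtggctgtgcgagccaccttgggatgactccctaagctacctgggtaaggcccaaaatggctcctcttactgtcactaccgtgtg
Mrps12, chr7:28741772-28742071, minus strand: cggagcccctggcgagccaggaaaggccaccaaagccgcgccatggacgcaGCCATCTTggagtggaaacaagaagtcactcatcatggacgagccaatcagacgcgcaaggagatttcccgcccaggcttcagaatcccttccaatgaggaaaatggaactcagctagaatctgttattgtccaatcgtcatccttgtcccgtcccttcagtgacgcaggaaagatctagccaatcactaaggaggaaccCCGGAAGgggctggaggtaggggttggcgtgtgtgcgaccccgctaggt
Mrps24, chr11:5707652-5707951, minus strand: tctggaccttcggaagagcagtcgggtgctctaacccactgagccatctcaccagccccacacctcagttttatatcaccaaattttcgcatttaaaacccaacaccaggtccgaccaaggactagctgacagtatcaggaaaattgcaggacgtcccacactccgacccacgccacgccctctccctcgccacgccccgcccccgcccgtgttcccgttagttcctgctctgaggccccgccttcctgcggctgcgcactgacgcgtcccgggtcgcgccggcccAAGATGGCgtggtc
Mrps25, chr6:92183974-92184273, minus strand: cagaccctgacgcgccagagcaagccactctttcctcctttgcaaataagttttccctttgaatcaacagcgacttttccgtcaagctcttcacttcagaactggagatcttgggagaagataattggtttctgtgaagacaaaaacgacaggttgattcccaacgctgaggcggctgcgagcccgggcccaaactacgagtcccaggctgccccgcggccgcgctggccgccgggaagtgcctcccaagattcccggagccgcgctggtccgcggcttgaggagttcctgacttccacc
Mrpl39, chr16:84735195-84735494, minus strand: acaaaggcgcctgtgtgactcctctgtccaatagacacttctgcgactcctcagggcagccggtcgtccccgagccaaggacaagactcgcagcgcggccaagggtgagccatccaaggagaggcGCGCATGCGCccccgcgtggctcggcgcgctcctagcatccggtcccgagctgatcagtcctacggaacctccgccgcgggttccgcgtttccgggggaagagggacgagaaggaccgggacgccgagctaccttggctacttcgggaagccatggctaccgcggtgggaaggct

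Mrpl51 held 1 ETS core, Mrps12 held 1 ETS core and 1 YY1 core, and Mrps24 held 1 YY1 core, just after the start. In Mrpl39 the run of capitals holds the NRF1 arm on both strands. Mrpl41 and Mrps25 held none of the 3. Counted on either strand, the letters CCAAT were found 2 times in Mrpl41, printed as ATTGG, and 4 times in Mrps12. Among 69 of the 78 genes with a start region in the table, the ETS core was in 26 (37.7%), the YY1 core in 12 (17.4%) and the NRF1 arm in 8 (11.6%). Over all 32851 start regions the shares were 8.86%, 2.75% and 2.71%, and over the 11857 of genes with a mean above 5 TPM they were 17.3%, 4.39% and 5.14%. The GGGCGG box was in 49.3% of the 69, against 62.8% of those 11857, and CCAAT in 39.1%, against 37.6%. These are matches of letters, on either strand. Each of the 69 genes was counted once if any of its start regions held the letters. The shares over 32851 and 11857 count each start region instead, so the units differ. The 9 genes Mrpl13, Mrpl15, Mrpl19, Mrpl38, Mrpl4, Mrpl54, Mrps28, Mrps34 and Mrps35 had no entry.

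In all 12 libraries every one of the 78 genes was above 3 TPM. By mean over the libraries, Mrps21, the counterpart of bacterial S21, was the highest at 249 TPM, followed by Mrpl42 at 204 and Mrpl17 at 202. Mrps21 read 276, 237 and 247 TPM in CD38+/+, 194, 235 and 245 in CD38+/- and 196 (lowest), 263 (median) and 306 (highest) in the 6 CD38-/- libraries. Mrpl42 read 291, 208 and 193, then 171, 196 and 191, then 172 (lowest), 203 (median) and 238 (highest). Mrpl17 read 272, 204 and 171, then 154, 189.6 and 204, then 167 (lowest), 204 (median) and 245 (highest). The genotypes overlapped for all 3, and these neighbours in the order of levels overlapped each other as well. At the other end, Mrpl1, the counterpart of bacterial L1, read 9.86, 6.55 and 12.3 TPM in CD38+/+, 12.04, 10.4 and 11.5 in CD38+/- and 8.69 (lowest), 11.7 (median) and 15.1 (highest) in CD38-/- libraries. Mrpl19 read 30.9, 8.7 and 31.7, then 14.4, 14.00 and 15.9, then 11.3 (lowest), 14.2 (median) and 19.1 (highest) TPM, with CD38+/+ values on both sides of the mutants. The median gene was at 76.2 TPM among the 49 of the large subunit and 69.2 among the 29 of the small, against 30.5 over the tested genes.

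**Figure D1:**
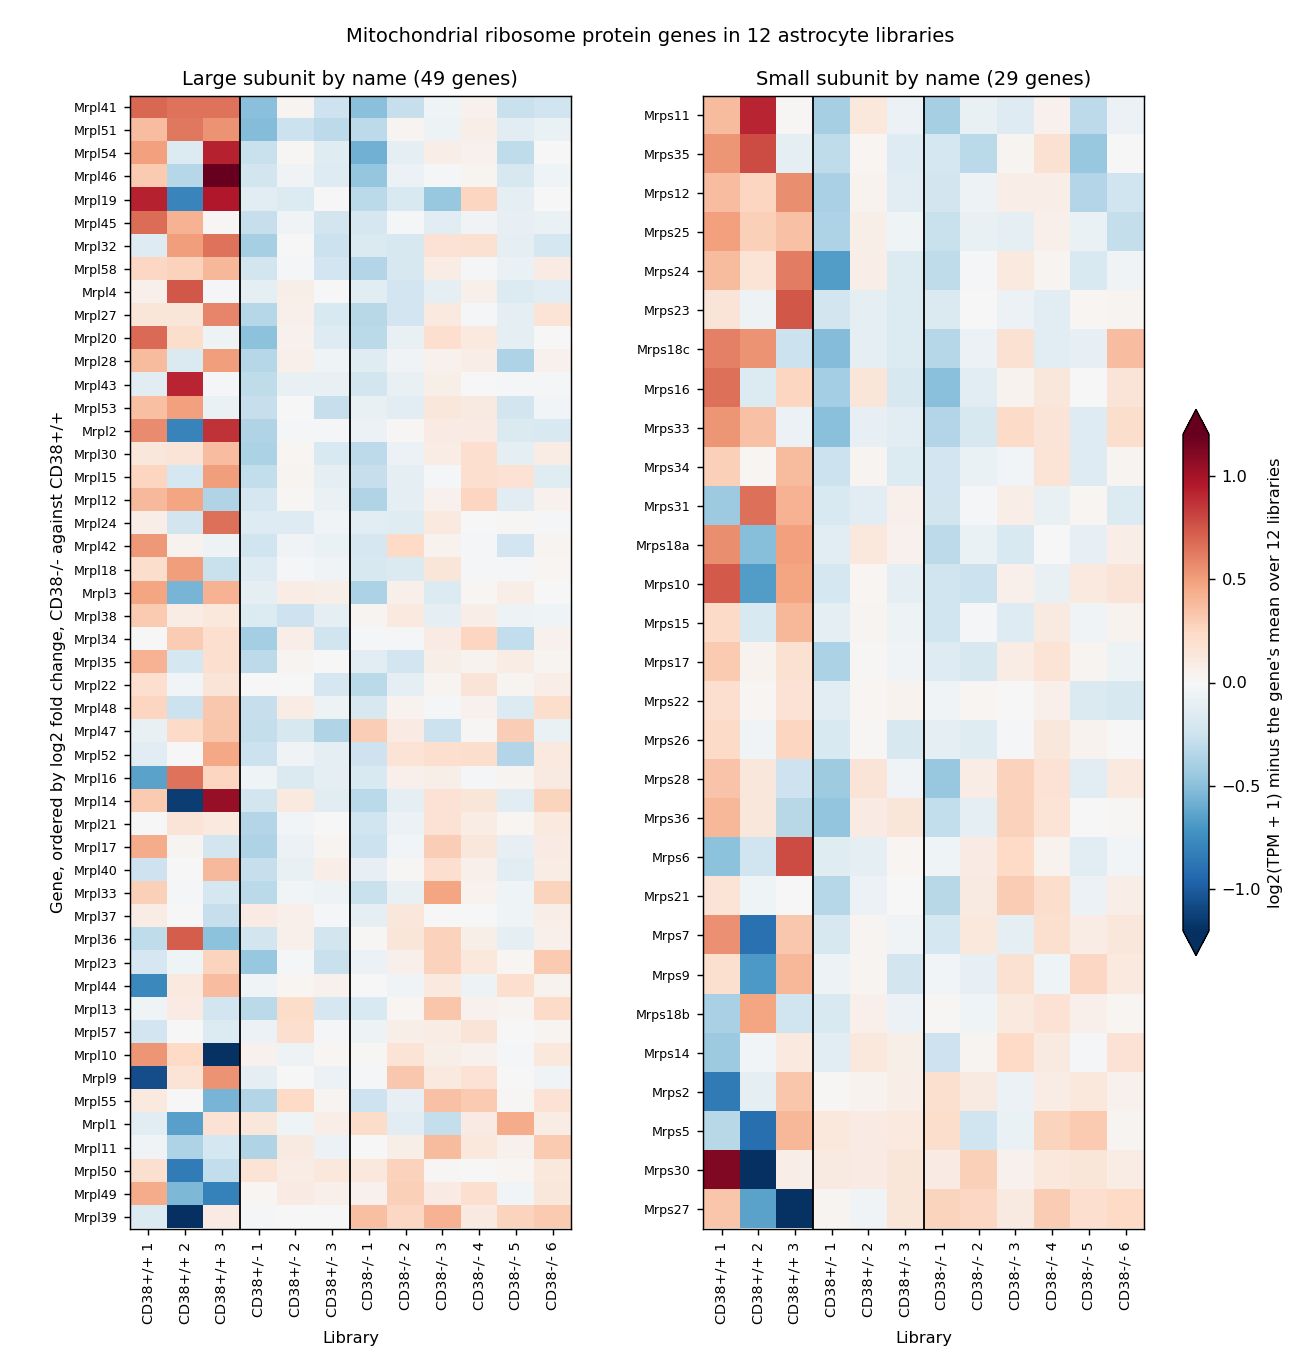
Each row is 1 of the 78 genes and each column 1 of the 12 libraries, and colour gives log2(TPM + 1) minus the gene's mean over the libraries (red higher, blue lower). The 3 CD38+/+ columns hold most of the strong colours of both signs, and the top rows of the left panel, Mrpl41 and Mrpl51, are red in all 3 and pale or blue in the 9 mutant columns.

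The spread of these genes was unequal between genotypes. The median coefficient of variation of the 78 genes was 24.6% among the 3 CD38+/+ libraries, 9.31% among the 3 CD38+/- and 10.4% among the 6 CD38-/- libraries, and 10 genes were above 50% in CD38+/+ against 0 in both mutant genotypes. Over all tested genes the median SD of log2(TPM + 1) was also higher in CD38+/+, at 0.49 against 0.20 and 0.23. Mrps30 varied the most: it read 45.7, 3.28 and 21.8 TPM in CD38+/+, 22.2, 22.2 and 22.9 in CD38+/- and 21.4 (lowest), 22.4 (median) and 25.3 (highest) in CD38-/- libraries. Mrpl41 varied the least in CD38+/+, with a coefficient of 1.42%. Of the 78 genes, 65 had their highest value in a CD38+/+ library, and 32 had their lowest in one.

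**Figure D2:**
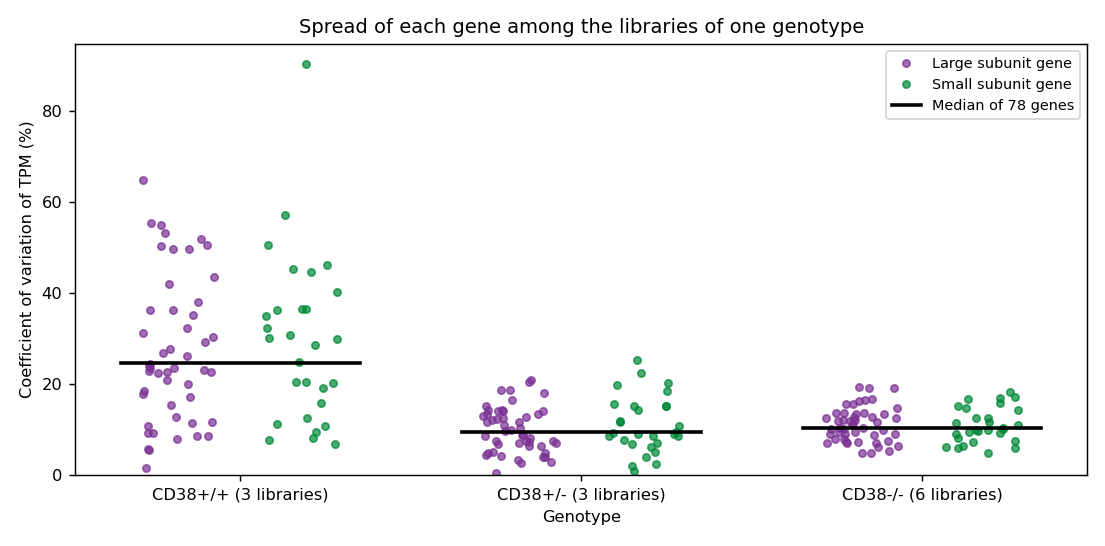
Each point is 1 gene's coefficient of variation of TPM (vertical axis, percent) among the libraries of 1 genotype (horizontal axis), with the median of the 78 genes as a bar. The bars stand at 24.6% in CD38+/+, 9.31% in CD38+/- and 10.4% in CD38-/-, and the highest point is Mrps30 in CD38+/+ at 90.1%.

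The loss of CD38 was addressed by comparing CD38-/- with CD38+/+ libraries. Of the 78 genes, 5 passed the test, and all 5 were lower in CD38-/-: Mrpl41 and Mrpl51 of the large subunit and Mrps12, Mrps25 and Mrps24 of the small. A gene was called when limma's moderated test on log2(TPM + 1), fitted over 11722 genes, gave a Storey q under 0.05 with at least a 1.2-fold change. In bulk samples, fewer cells of a type and less RNA per cell cannot be told apart. That is 6.41% of the 78, beside 8.28% of all genes tested (970 of 11722), so the share called was near the background. In the lower direction it was 5 of 78 (6.41%) beside 1.86% of all genes, and in the higher direction 0 of 78 beside 6.42%. At an unadjusted p under 0.05 there were 15 (beside 23.6% of all genes), 12 of them lower (15.4%, beside 5.99%) and 3 higher (Mrpl11, Mrps27 and Mrpl39, beside 17.6%).

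Mrpl41 encodes a large-subunit protein with no bacterial counterpart that has also been described as a partner of the cell death regulator Bcl-2. The gene lies at chr2:24974117-24975098 (GRCm38, minus strand). It read 241, 234 and 236 TPM in the CD38+/+ libraries, 105, 153 and 126 in CD38+/- and 105 (lowest), 125 (median) and 155 (highest) in CD38-/-. Every mutant library was below every CD38+/+ library, and the 2 mutant genotypes overlapped almost fully. The means were 237 ± 3.37 (SD, n = 3), 128 ± 23.9 (n = 3) and 129.7 ± 17.5 (n = 6) TPM, and the difference of CD38-/- from CD38+/+ was -0.88 ± 0.13 (SE) on the log2 scale, with q = 0.00616 by limma. A two-sided exact permutation test gave p = 0.0119, the smallest that 6 against 3 libraries can give. Mrpl41 was called without any 1 of the 9 libraries, with log2 fold changes from -0.93 to -0.82. It was not called with library quality weights, a fit that called 1 of 11722 genes. Nor was it called with replicate number as a block (2 of 11722 genes called). With that block and the length and GC trend removed (2 of 11709), it was not called either.

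Mrpl51 (chr6:125191801-125196269, plus strand) also encodes a large-subunit protein with no bacterial counterpart. It read 133, 160.2 and 149.9 TPM in CD38+/+, 71.3, 85.9 and 82.4 in CD38+/- and 82.3 (lowest), 97.7 (median) and 108 (highest) in CD38-/- libraries. Again no mutant library reached the CD38+/+ range, and here the CD38+/- libraries were mostly below the CD38-/- ones. In CD38-/- its log2 fold change from CD38+/+ was -0.60 ± 0.13 (SE), with q = 0.0207 by limma.

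The other 3 called genes belong to the small subunit. Mrps12 (chr7:28739641-28741820, minus strand) encodes the counterpart of bacterial S12, a protein of the decoding centre in which resistance to streptomycin arises. It read 167, 154 and 189 TPM in CD38+/+, 97.9, 133 and 118 in CD38+/- and 101 (lowest), 117 (median) and 136 (highest) in CD38-/- libraries, and its log2 fold change was -0.51 ± 0.14 (SE) (q = 0.0342, limma). Mrps24 (chr11:5703983-5715680, minus strand), the counterpart of bacterial S3, read 169, 146 and 199, then 81.2, 137 and 115, then 105 (lowest), 127 (median) and 141 (highest) TPM, with -0.45 ± 0.14 (SE) (q = 0.048, limma). Mrps25 (chr6:92169525-92184033, minus strand) has no bacterial counterpart, and variants of its human form are linked to mitochondrial encephalomyopathy. It read 64.6, 55.9 and 58.5, then 34.99, 47.8 and 43.9, then 37.1 (lowest), 42.3 (median) and 47.6 (highest) TPM, with -0.51 ± 0.15 (SE) (q = 0.0433, limma). For all 3, the highest CD38-/- value was below the lowest CD38+/+ value. The annotated spans of Mrps25 share 4770 bases with Nr2c2 on the other strand and those of Mrps24 share 2264 bases with Urgcp on the same strand, so reads from these stretches, made with a kit that does not mark strand, may belong to either gene. The RefSeq start used for Mrps24 lies within the annotated span of Mrps24. Those used for Mrpl51, Mrps25 and Mrpl39 also lie within the annotated spans of these genes, nearer to the annotated start.

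The number of calls depended on single libraries. Without CD38-/- replicate 1, 2, 5 or 6, Mrpl41 was the 1 gene of the 78 still called, while the calls over all genes went from 970 to 112, 74, 93 and 154. Without CD38-/- replicate 3 it was 3 genes. Mrpl51 and Mrps12 lost their call in 4 of these 9 fits, Mrps25 in 5 and Mrps24 in 8. Without CD38+/+ replicate 1, 2 or 3, the calls went to 12 (5 higher), 17 (1 higher) and 18 (4 higher), with 1829, 1931 and 3119 over all genes.

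**Figure D3:**
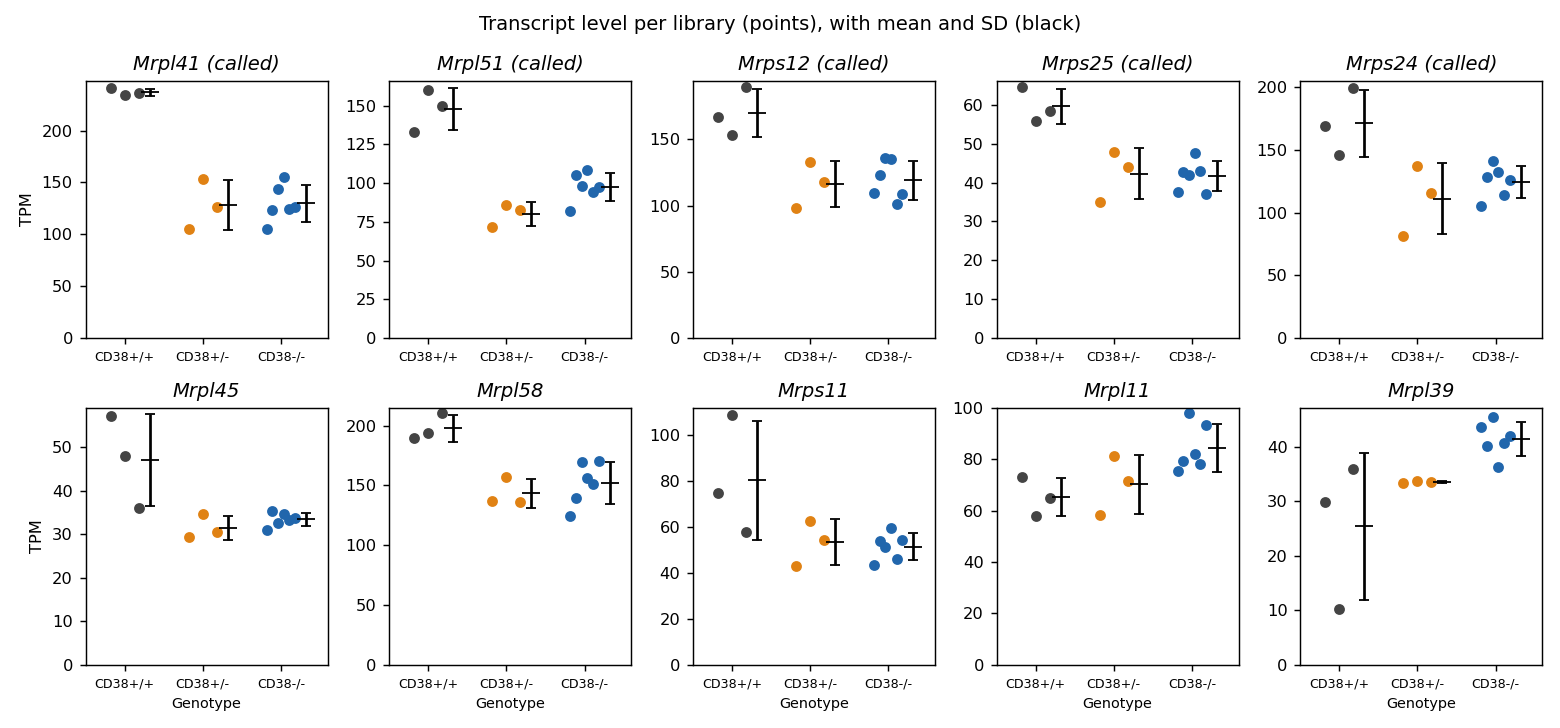
TPM (vertical axis, from 0) in each library (points) by genotype for the 5 called genes (top row) and 5 others, with the mean and SD in black. In the top row every CD38+/+ point is above every mutant point, while for Mrpl11 and Mrpl39 every CD38-/- point is above every CD38+/+ point.

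Without overlap between CD38-/- and CD38+/+ libraries, 7 genes were lower and 2 higher. That is 8.97% of the 78 lower, beside 3.62% of all genes, and 2 of 78 higher, beside 8.21%. In either direction it is 11.5%, beside 11.8%. Besides the 5 called genes, the lower ones were Mrpl45, which anchors the ribosome at the inner membrane where new chains leave, and Mrpl58, a peptidyl-tRNA hydrolase that frees stalled ribosomes. Mrpl45 read 57.2, 47.9 and 36.1 TPM in CD38+/+ and 30.9 (lowest), 33.5 (median) and 35.3 (highest) in CD38-/- libraries, a log2 fold change of -0.46 ± 0.17 (SE) (q = 0.0803, limma). Mrpl58 read 189, 194 and 211 TPM in CD38+/+ and 124 (lowest), 154 (median) and 170.2 (highest) in CD38-/- libraries, a log2 fold change of -0.39 ± 0.13 (SE) (q = 0.0582, limma). Neither passed the test.

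The higher ones were Mrpl11 and Mrpl39. Mrpl11, the counterpart of bacterial L11 at the base of the stalk where translation factors dock, read 73.1, 58.1 and 64.9 TPM in CD38+/+, 58.3, 81.3 and 71.5 in CD38+/- and 75.6 (lowest), 80.8 (median) and 98.2 (highest) in CD38-/- libraries, with 0.36 ± 0.14 (SE) (q = 0.0839, limma). Mrpl39, of the large subunit and with no bacterial counterpart, read 29.9, 10.3 and 36.03, then 33.4, 33.7 and 33.5, then 36.4 (lowest), 41.4 (median) and 45.5 (highest) TPM, with 0.85 ± 0.31 (SE) (q = 0.0735, limma). Its CD38+/+ value in replicate 2 was far below the other 2, and its 3 CD38+/- values were nearly equal. Under the 22 alternatives both kept a positive log2 fold change.

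Other genes with large differences had CD38+/+ libraries that disagreed. Mrps11, the counterpart of bacterial S11, read 74.8, 109 and 57.8 TPM in CD38+/+ and 43.3 (lowest), 52.6 (median) and 59.4 (highest) in CD38-/- libraries, a log2 fold change of -0.60 ± 0.19 (SE) with q = 0.0559 by limma. Its head-to-head neighbour Mrpl46, whose annotated start overlaps that of Mrps11 by 413 bases, read 70.02, 44.02 and 133 TPM in CD38+/+ and 40.3 (lowest), 53.8 (median) and 57.4 (highest) in CD38-/- libraries, a log2 fold change of -0.53 ± 0.27 (SE) with q = 0.148 by limma. In CD38+/+ the 2 neighbours were high in different libraries, replicate 2 for Mrps11 and replicate 3 for Mrpl46. Mrpl54 read 117, 73.6 and 158 TPM in CD38+/+ against 55.1 to 87.7 (median 79.99) in CD38-/- (-0.56 ± 0.23 (SE)). Mrps35 read 118, 141 and 75.8 against 59.4 to 92.5 (median 75.7) TPM (-0.53 ± 0.20 (SE)). Neither was called, and each had 1 CD38+/+ library inside the CD38-/- range.

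Next to Mrpl39 among the most positive values, Mrps27, a pentatricopeptide repeat protein of the small subunit, read 37.8, 18.8 and 12.6 TPM in CD38+/+ and 32.2 to 37.2 (median 35.6) in CD38-/- libraries, with 0.73 ± 0.27 (SE) (q = 0.0786, limma). Mrpl49 read 58.1, 28.8 and 23.7 against 41.5 to 51.9 (median 45.98) TPM (0.43 ± 0.24 (SE)). Mrpl50 read 36.3, 17.2 and 25.6 against 31.5 to 38.4 (median 33.3) TPM (0.41 ± 0.22 (SE)). In all 3, 1 CD38+/+ library was above the CD38-/- median and the others were below the CD38-/- range. Mrps30, given above, had 0.51 ± 0.54 (SE) and turned to -0.47 without CD38+/+ replicate 2. None of these was called.

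Across the whole set, 53 of the 78 log2 fold changes of CD38-/- against CD38+/+ were negative (67.9%), beside 35.7% of all genes tested. The median was -0.16 for the 49 large-subunit genes and -0.20 for the 29 of the small subunit, beside 0.15 over all genes. TPM are shares, and another scaling shifts every gene together: with median-ratio scaling the median of all genes was 0.04 in place of 0.15, and that of the 78 was -0.29 in place of -0.17. The distance between them was -0.32 as reported, -0.33 after that scaling, -0.25 under quantile normalization and -0.21 once the trend with transcript length and GC content was taken out. Under these settings the calls over all genes split into 562 higher and 388 lower, 578 and 387, and 421 and 894, beside 752 and 218 as reported. The set was not tested as a set.

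**Figure D4:**
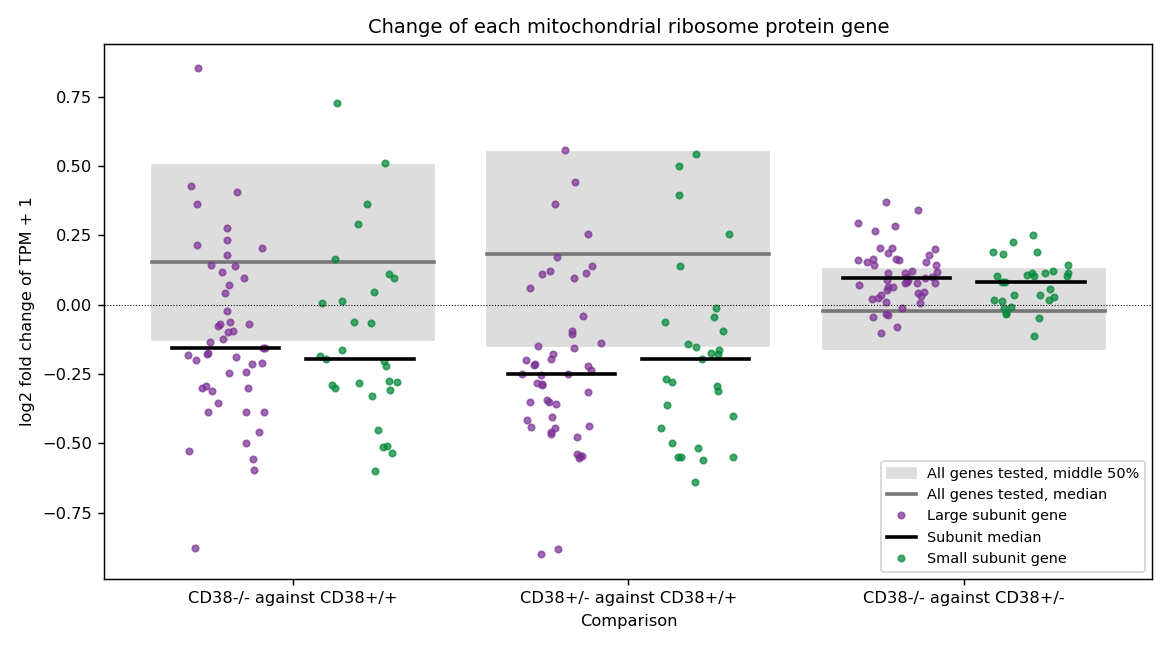
Each point is the log2 fold change of TPM + 1 (vertical axis) of 1 gene, by subunit, in each of the 3 comparisons (horizontal axis); black bars are subunit medians and the grey band and line the middle 50% and median of all genes tested. In both comparisons with CD38+/+ the subunit medians (-0.25 to -0.16) lie below 0 and the line (0.15 and 0.18) above it.

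The summed level gives the same data as a share of all transcripts. The 49 large-subunit genes summed to 5036, 4698 and 5147 TPM in CD38+/+, 3588, 4336 and 4013 in CD38+/- and 3772 (lowest), 4398 (median) and 4706 (highest) in CD38-/- libraries. The 29 small-subunit genes summed to 3030, 2608 and 3027, then 2078, 2559 and 2439, then 2169 (lowest), 2534 (median) and 2721 (highest) TPM. Every CD38+/- sum was below every CD38+/+ sum for both subunits, while CD38-/- libraries overlapped CD38+/+ through replicate 2 of the latter. Among the mutants, replicate 1 of each genotype had the lowest sums.

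**Figure D5:**
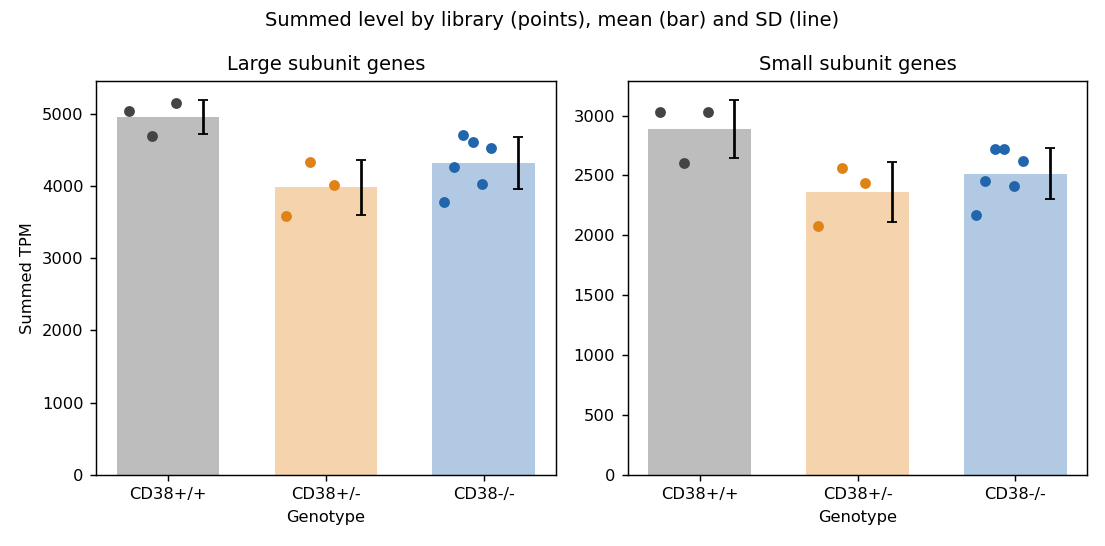
Summed TPM (vertical axis, from 0) of the 49 large-subunit and 29 small-subunit genes in each library (points) by genotype, with the mean as a bar and the SD as a line. The large-subunit sums are 4698 to 5147 TPM in CD38+/+, 3588 to 4336 in CD38+/- and 3772 to 4706 in CD38-/-.

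Ancestry and size of the genes were set beside these changes. Of the 46 genes with a bacterial counterpart, 2 (4.35%) were called lower in CD38-/- (Mrps12 and Mrps24). Log2 fold changes were negative for 30 of them (65.2%), with a median of -0.15. Of the 31 ribosome genes without one, 3 (9.68%) were called lower (Mrpl41, Mrpl51 and Mrps25). Of these 31, 22 (71.0%) were negative and the median was -0.19. Over all genes 1.86% were called lower and 35.7% were negative. The difference between the 2 classes was not tested. The 78 genes have short transcripts, with a median length of 1052 bases beside 2133 over the tested genes. The 39 shorter ones had a median log2 fold change of -0.19 and the 39 longer ones of -0.16. Across the 78 genes, which share libraries and are not replicates, the rank correlation of length with log2 fold change was 0.10.

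Partial loss of CD38 was addressed with the CD38+/- libraries, set against the same 3 CD38+/+ libraries, so the 2 comparisons are not independent. By limma 0 of the 78 genes and 0 of 11763 genes were called (0% of either). At an unadjusted p under 0.05, 9 of the 78 were lower (11.5%, beside 3.99% of all genes) and 0 higher (beside 9.5%). Of 3 libraries against 3, 14 genes were lower without overlap (17.9%, beside 6.94%), and 0 were higher (beside 15.5%). The 14 were Mrpl27, Mrpl30, Mrpl38, Mrpl41, Mrpl45, Mrpl47, Mrpl51, Mrpl58, Mrps12, Mrps17, Mrps23, Mrps24, Mrps25 and Mrps33. The exact permutation test cannot go below p = 0.1 with 3 against 3 libraries. In all, 62 of 78 log2 fold changes were negative (79.5%, beside 35.6%), with medians of -0.25 in the large and -0.20 in the small subunit beside 0.18 over all genes, and 58 to 68 were negative under the alternatives run. The sums of astrocyte and of microglial markers (21.6 to 25.8 against 4.49 to 17.9 TPM) were higher, and those of globin genes and of neuronal markers (38.8 to 60.7 against 65.04 to 72.4 TPM) lower, in every CD38+/- than in every CD38+/+ library, and their part in these values was not tested.

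The lowest were the 2 large-subunit genes named first above. Mrpl41, whose values in each library are given above, had a log2 fold change of -0.90 ± 0.17 (SE) in CD38+/- (q = 0.158, limma). Mrpl51 had -0.88 ± 0.17 (SE) (q = 0.158, limma). Both were called when all 12 libraries shared 1 fit and when the filter on low genes was left out. Over all genes, these fits called 1464 of 11763 and 663 of 17204. Mrps24 had -0.64 ± 0.23 (SE), and its CD38+/- libraries ranged from 81.2 to 137 TPM.

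Others of the 9 were Mrps12 at -0.55, Mrps25 at -0.50, Mrpl58 at -0.47 and 3 genes not yet described. Mrps33, a small-subunit protein with no bacterial counterpart, read 279.8, 247 and 184 TPM in CD38+/+, 136, 181 and 176 in CD38+/- and 151 (lowest), 194 (median) and 227 (highest) in CD38-/- libraries, with -0.52 ± 0.20 (SE) in CD38+/-. Mrpl27, the counterpart of bacterial L27 near the site of peptide bond formation, read 176, 176 and 239, then 126, 166 and 141, then 127 (lowest), 153 (median) and 179 (highest) TPM, with -0.44 ± 0.19 (SE). Mrpl30 read 152, 153 and 178, then 105, 139 and 121, then 110.2 (lowest), 138 (median) and 158 (highest) TPM, with -0.40 ± 0.17 (SE). In each of the 3 the CD38+/- libraries lay below the CD38+/+ ones, while the CD38-/- range reached into both.

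Others were among the 6 lowest by size alone. Mrps18c, a counterpart of bacterial S18, read 115, 110.2 and 62.6 TPM in CD38+/+ and 52.1, 69.5 and 67.3 in CD38+/- libraries, with -0.56 ± 0.27 (SE). Mrpl32, which a protease of the inner membrane must cut before it can join the ribosome, read 39.8, 63.5 and 70.2 TPM in CD38+/+ and 33.5, 44.3 and 37.00 in CD38+/- libraries, with -0.55 ± 0.27 (SE). Mrps35, described above, read 65.8, 82.9 and 73.3 TPM in CD38+/-, with -0.55 ± 0.25 (SE). All 3 overlapped between these genotypes. The 6 largest positive values belonged to Mrpl39, Mrps27, Mrps30, Mrpl50, Mrps5 and Mrpl49, from 0.36 to 0.56, and all 6 overlapped. Mrps5, the counterpart of bacterial S5, read 48.6, 32.5 and 81.4 TPM in CD38+/+, 67.4, 66.2 and 66.7 in CD38+/- and 52.1 (lowest), 67.2 (median) and 76.7 (highest) in CD38-/- libraries.

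Transcript length was set beside the CD38+/- values as well. Of the 39 shorter genes 37 had negative log2 fold changes, and of the 39 longer ones 25, with medians of -0.25 and -0.22. The difference between the shorter and the longer genes was not tested. With the trend of length and GC content removed, 67 of the 78 were negative and the set's median was -0.28, beside -0.05 over all genes.

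The 2 mutant genotypes were compared directly, CD38-/- against CD38+/-. By limma 0 of the 78 genes and 4 of 11563 genes (0.0346%) were called, the latter 0.0173% higher and 0.0173% lower. At an unadjusted p under 0.05 (11.2% of all genes), 4 of the 78 were higher in CD38-/- (beside 6.24%) and 0 lower (beside 5%). Mrpl23, the counterpart of bacterial L23 at the mouth of the exit tunnel, read 116, 157 and 133 TPM in CD38+/- and 152 (lowest), 171 (median) and 198 (highest) in CD38-/- libraries, with 0.37 ± 0.12 (SE) (q = 0.224, limma). Mrpl47, the counterpart of bacterial L29, read 17.7, 22.2 and 24.1 TPM in CD38+/+, 15.3, 16.4 and 14.4 in CD38+/- and 15.6 (lowest), 19.6 (median) and 23.4 (highest) in CD38-/- libraries, with 0.34 ± 0.15 (SE). Mrpl39 had 0.29 ± 0.10 (SE) and Mrpl51 had 0.28 ± 0.11 (SE) on the values above. Of the 78, Mrpl39 and Mrpl38 (88.5, 83.2 and 91.3 against 92.1 to 108 (median 98.4) TPM) did not overlap, both higher in CD38-/-. That is 2.56% of the 78, beside 5.73% of all genes (2.85% higher and 2.88% lower).

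Log2 fold changes were positive for 66 of the 78 genes and negative for 12 (15.4%, beside 54.6% of all genes), and the largest negative ones, of Mrps18a (-0.11), Mrpl4 (-0.10) and Mrpl3 (-0.08), were small. Mrps18a, in the large subunit despite its name, read 176, 83.2 and 168 TPM in CD38+/+, 109, 129.9 and 124 in CD38+/- and 95.5 (lowest), 112 (median) and 126 (highest) in CD38-/- libraries. The medians were 0.10 in the large and 0.08 in the small subunit beside -0.02 over all genes. Without CD38+/- replicate 1, 45 of the 78 were positive and the set's median was 0.02, beside 0.03 over all genes. Over the 22 alternatives 9 to 47 were negative and the set's median ran from -0.02 to 0.15. It turned negative, with 47 negative genes, with a replicate block and the length and GC trend removed together, and with that trend alone removed 25 were negative. The CD38+/- library of replicate 1 held the lowest value of the 12 libraries for 30 of the 78 genes. Mrpl41 did not differ beyond its spread between the mutants (0.02 ± 0.14 (SE), with a 95% interval from -0.28 to 0.33).

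The genes were also read by place in the ribosome, first at the exit tunnel, through which the new chain leaves. Its proteins include Mrpl4 and Mrpl22 in the wall and Mrpl23, Mrpl24, Mrpl47 and Mrpl45 at the mouth. Mrpl4 read 116, 187 and 109.9 TPM in CD38+/+, 103, 117 and 111 in CD38+/- and 94.5 (lowest), 101 (median) and 116 (highest) in CD38-/- libraries. Mrpl22 read 77.4, 65.6 and 74.8, then 67.00, 67.1 and 58.2, then 53.2 (lowest), 68.5 (median) and 74.8 (highest) TPM. Mrpl24 read 92.9, 75.1 and 139, then 78.7, 78.96 and 85.4, then 79.1 (lowest), 87.4 (median) and 95.4 (highest) TPM. The 3 genotypes overlapped for each of these 3. In the 6 tunnel genes named here, the log2 fold changes of CD38-/- from CD38+/+ ran from -0.46 (Mrpl45) to 0.12 (Mrpl23).

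At the stalk, where translation factors dock, Mrpl10 read 83.7, 68.4 and 24.8 TPM in CD38+/+, 59.7, 55.2 and 58.6 in CD38+/- and 56.8 (lowest), 60.2 (median) and 64.6 (highest) in CD38-/- libraries. The 3 stalk genes had log2 fold changes in CD38-/- of -0.21 (Mrpl12), 0.21 (Mrpl10) and 0.36 (Mrpl11), of both signs, and none passed the test. Of the proteins around the site of peptide bond formation, Mrpl2 had -0.25, Mrpl16 -0.08 and Mrpl27 -0.36. Mrpl2 read 125, 47.97 and 154 TPM in CD38+/+ and 74.04 to 90.4 (median 82.7) in CD38-/- libraries, and Mrpl16 read 30.7, 76.6 and 58.2 against 42.5 to 52.4 (median 50.2) TPM. In both, the CD38+/+ libraries lay on either side of all 6 CD38-/- libraries.

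The head of the small subunit swivels as the message moves. Of its proteins, Mrps7, Mrps9, Mrps10 and Mrps14 had log2 fold changes in CD38-/- of 0.04, 0.10, -0.22 and 0.17. The head also holds others, among them Mrps24, called lower in CD38-/-, and Mrps35, not called, both described above. Mrps9 read 41.7, 22.2 and 48.3 TPM in CD38+/+, 34.99, 37.4 and 31.2 in CD38+/- and 34.04 (lowest), 37.6 (median) and 43.5 (highest) in CD38-/- libraries. Mrps10 read 111, 41.03 and 92.02, then 56.8, 67.1 and 61.2, then 55.1 (lowest), 65.4 (median) and 73.6 (highest) TPM. Mrps14 read 129, 171 and 189, then 159, 189.9 and 183, then 147 (lowest), 183 (median) and 207 (highest) TPM. All 3 overlapped, and the lowest CD38+/+ value of Mrps9 and Mrps10 was in replicate 2 while that of Mrps14 was in replicate 1.

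Some genes were picked for their place in the ribosome or for a link to inherited disease, with earlier results of these data known. Mrpl12, the stalk protein that binds translation factors, read 92.7, 98.3 and 54.4 TPM in CD38+/+, 61.2, 71.2 and 66.6 in CD38+/- and 54.5 (lowest), 68.8 (median) and 84.3 (highest) in CD38-/- libraries. Mrpl3, linked to inherited cardiomyopathy, read 102, 49.7 and 98.9, then 68.3, 78.4 and 77.1, then 56.2 (lowest), 74.3 (median) and 77.7 (highest) TPM. Mrpl44, an RNase III relative with the same link, read 22.9, 43.3 and 51.9, then 38.8, 40.6 and 41.4, then 38.3 (lowest), 40.5 (median) and 45.98 (highest) TPM. For these 3 the mutant values lay within or near the CD38+/+ range. Mrps2 read 14.6, 24.9 and 34.3, then 27.4, 27.8 and 28.7, then 25.6 (lowest), 28.97 (median) and 31.1 (highest) TPM, and Mrps7 read 98.9, 35.9 and 84.8, then 59.1, 68.9 and 65.3, then 58.3 (lowest), 72.8 (median) and 77.4 (highest) TPM. Mrps22, linked to failure of oxidative phosphorylation in infancy, read 34.4, 30.1 and 33.5, then 26.96, 30.2 and 30.6, then 25.8 (lowest), 29.2 (median) and 30.9 (highest) TPM. Its 3 CD38+/+ values were close together, and the genotypes still overlapped. Mrps16 read 107, 59.98 and 80.8, then 50.7, 74.5 and 58.9, then 47.2 (lowest), 68.7 (median) and 75.05 (highest) TPM, and Mrps34 read 143, 119 and 153, then 97.5, 119.8 and 104, then 99.7 (lowest), 112 (median) and 131 (highest) TPM. Apart from Mrps12, none of these genes was called in any comparison, and their log2 fold changes of CD38-/- against CD38+/+ ran from -0.30 (Mrps16) to 0.29 (Mrps2).

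Many of these genes share a start region with another gene. Within 1000 bases, 32 of the 78 had a protein-coding neighbour that starts on the other strand and is in the table, and 29 such neighbours were tested between CD38-/- and CD38+/+. By limma 0 of the 29 were called (beside 8.28% of all genes), and at an unadjusted p under 0.05, 3 were higher and 2 lower (beside 17.6% and 5.99%). Of the 29, 2 are themselves among the 78, Mrps11 and Mrpl46, which neighbour each other, and Mrps11 is among the lower ones. Sars2, which charges mitochondrial serine tRNA and starts 172 bases from Mrps12, read 4.37, 14.1 and 28.3 TPM in CD38+/+ and 15.2 to 22.6 (median 16.1) in CD38-/- libraries, a log2 fold change of 0.42 ± 0.42 (SE) beside -0.51 for Mrps12. Ncapd2, which starts 100 bases from Mrpl51, had 0.14 beside -0.60, and Pnpla7, 935 bases from Mrpl41, had 0.29 beside -0.88. These distances are between annotated spans, not from the start regions shown above.

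Other genes of mitochondrial translation were read from lists of named genes. Of 5 ribosome proteins with other names, 0 were called by limma in any comparison, and 1 was lower at an unadjusted p under 0.05 in CD38-/- against CD38+/+: Gadd45gip1, at 51.98, 31.3 and 59.97 TPM in CD38+/+, 25.02 to 30.2 in CD38+/- and 27.6 to 35.6 (median 30.7) in CD38-/- libraries (-0.56 ± 0.21 (SE)). Chchd1 had -0.33, Aurkaip1 -0.11, Dap3, a GTP-binding protein of the small subunit, 0.01 and Ptcd3 0.28.

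Of 15 translation factors, 2 were called higher in CD38-/- than in CD38+/+ and 0 lower, beside 6.42% and 1.86% of all genes, a count too small to read against that share. Lrpprc, which stabilises mitochondrial messages, read 13.1, 7.33 and 18.3 TPM in CD38+/+, 36.9, 24.8 and 25.3 in CD38+/- and 23.4 (lowest), 30.1 (median) and 37.9 (highest) in CD38-/- libraries, with 1.25 ± 0.27 (SE) (q = 0.0207, limma). Mtrf1, a release factor, read 2.32, 0 and 7.49, then 10.2, 11.3 and 10.8, then 10.7 (lowest), 11.5 (median) and 12.4 (highest) TPM, with 2.04 ± 0.52 (SE) (q = 0.0322, limma). Both were without overlap. The largest differences the other way, in the initiation factors Mtif2 (-0.50 ± 0.25 (SE)) and Mtif3 (-0.35 ± 0.25 (SE)) and in Tsfm, an elongation factor (-0.27 ± 0.27 (SE)), were not called, nor was Mtrf1l (0.97 ± 0.41 (SE)).

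Of 26 assembly factors and ribosomal RNA enzymes, 1 was called higher and 0 lower (beside 6.42% and 1.86% of all genes), and at an unadjusted p under 0.05, 6 were higher and 3 lower (beside 17.6% and 5.99%). Mterf4, which brings an RNA methyltransferase to the ribosome, read 23.8, 26.6 and 25.99 TPM in CD38+/+, 41.1, 33.8 and 34.7 in CD38+/- and 35.9 (lowest), 45.6 (median) and 46.6 (highest) in CD38-/- libraries, with 0.75 ± 0.16 (SE) (q = 0.0207, limma). The 3 most negative log2 fold changes were those of Trub2 (-0.70 ± 0.24 (SE)), Rpusd4 (-0.62 ± 0.20 (SE)) and Mpv17l2 (-0.45 ± 0.14 (SE)). Rpusd4, a pseudouridine synthase, read 25.8, 26.7 and 29.1, then 16.8 to 17.99, then 15.02 to 20.98 (median 16.7) TPM without overlap (q = 0.0546, limma). The larger positive ones of Tfb1m (1.64 ± 0.66 (SE)), Gtpbp10 (1.14 ± 0.41 (SE)) and Mrm1 (0.97 ± 0.34 (SE)) were not called.

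Of 22 mitochondrial aminoacyl-tRNA synthetases and related enzymes, 21 passed the filter, 2 were called higher and 0 lower (beside 6.42% and 1.86% of all genes). Pars2, the enzyme for proline and 1 of those called, was listed at 0 in 2 CD38+/+ libraries and read 11.4 in the third, against 14.8, 14.4 and 17.5 TPM in CD38+/- and 11.3 (lowest), 17.05 (median) and 19.9 (highest) TPM in CD38-/- libraries, with 2.87 ± 0.67 (SE) (q = 0.0253, limma). Yars2 had 1.08 ± 0.45 (SE), Qrsl1 -0.34 ± 0.38 (SE), Vars2 -0.27 ± 0.28 (SE) and Nars2 -0.21 ± 0.28 (SE), and none of these was called. All 5 called genes of these lists were higher, as were 752 of the 970 called over all genes, and each lost its call without 1 of several libraries (4 of 9 such fits, 5 for Mtrf1). Against CD38+/+, 0 genes of these lists were called in CD38+/- by limma (beside 0% of all genes). The 4 lists held 5, 15, 26 and 21 tested genes. At an unadjusted p under 0.05, 5 of these genes were higher and 2 lower, beside 9.5% and 3.99% of all genes. The 13 messages and 2 ribosomal RNAs encoded by mitochondrial DNA were not analysed here.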

How the data were processed

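RNA of 12 astrocyte libraries was made into sequencing libraries with the SMART-Seq v4 kit, which does not mark strand. The labels name polyadenylated RNA and the study's methods depletion of ribosomal RNA. The authors deposited TPM values per gene in 1 table, made from reads trimmed with Trim Galore 0.6.4, aligned to mm10 with STAR 2.7.1a and quantified with RSEM 1.2.28, per the methods and processing notes (which also name DESeq2 1.36.0, without a role). RSEM shares out reads that match several copies of a gene, so genes with close copies are less certain. Counts were not used here, so the depth is unknown and no counting interval is given.

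Samples were grouped by the genotype in the labels. TPM were analysed as log2(TPM + 1) with limma 3.58.1 (R 4.3.3, pairwise fits, eBayes with trend), over genes whose mean TPM passed 5 in either genotype compared. Fold changes are on that scale, which understates those of low genes. Storey q values were computed over all genes tested, with 0.05 and a 1.2-fold change as the threshold. Single genes were also compared by exact permutation tests (two-sided), and the limma step was tested on simulated data. The members, lists and named genes were chosen with earlier results of these data known. Genes given with a value in each library were those called, the 6 highest and 6 lowest log2 fold changes against CD38+/+ (3 and 3 between the mutants), the 3 highest and 3 lowest levels, and 9 genes picked for their place or disease link. Genes without overlap and those of the tunnel, stalk, reaction site and head were added after their values had been seen. Other scalings, filters, pseudocounts, adjustments, library weights, a replicate block and left-out libraries were tried as alternatives. Positions are from GENCODE vM21 (GRCm38) and start regions from RefSeq (GRCm38.p6). The values of 1 called gene of the other lists are not reported here.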

Additional observations from a re-analysis of the deposited data

Results flagged for a closer look

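Among the 6 CD38-/- libraries, the TPM of 40 named genes and the summed TPM of both subunits were searched for a library far from the others, and 1 of these 42 values met the criterion. Mrpl4, which lines the exit tunnel, stood at 116 TPM in CD38-/- replicate 4, and the nearest of the other 5 libraries was at 102 TPM. The gap was 0.642 of the range of the 6 libraries, above the critical ratio of 0.625. Chance alone sets off this criterion for about 1 in 20 values. The sums of that library were not the highest for the large subunit (4604 TPM, against 4706 TPM in replicate 3), and its value of Mrpl4 was inside the range of the CD38+/+ libraries.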

How the results depend on the processing

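The files give no depth, and 3 CD38+/+ libraries of wide spread limit every comparison with them. For CD38-/- against CD38+/+, the 5 called genes became 2 with Benjamini-Hochberg adjustment, 3 with a filter of at least 1 TPM in every library, 3 without a variance trend, 11 with all 12 libraries in 1 fit, 13 with the length and GC trend removed, 9 without a filter and 0 with library quality weights (whose fit gave convergence warnings), where Mrpl41 had -0.88 on the log2 scale and was no longer called. Over all genes, 970 were called as reported, 326 with Benjamini-Hochberg adjustment, 775 with the 1 TPM filter and 845 without a variance trend. All 12 libraries in 1 fit gave 1822, the removed trend 1315 of 11709 and no filter 2283 of 18906. Library quality weights gave 1. In each of these settings the calls among the ribosome genes and over all genes moved in the same direction. The large-subunit median was -0.27 with median-ratio scaling and -0.27 with the length and GC trend removed. Leaving out 1 library gave 1 to 18 calls, and the log2 fold change of Mrps30 ran from -0.47 without CD38+/+ replicate 2 to 1.26 without replicate 1.

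For CD38+/- against CD38+/+, where 0 were called, 1 fit of all 12 libraries called 7 and the fit without a filter called 2. Over all genes these fits called 1464 of 11763 and 663 of 17204. Both called Mrpl41 at -0.90. The large-subunit median was -0.39 with median-ratio scaling. Without 1 library, Mrps30 ran from -0.48 to 1.25. For CD38-/- against CD38+/-, library quality weights called 6, all higher, beside 3120 of 11563 over all genes (1644 higher and 1476 lower). Mrpl41 changed sign there, to -0.057 with the length and GC trend removed and -0.00408 with quantile normalization, and ran from -0.11 to 0.16 without 1 library. The causes of these changes were not tested.

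The labels give no reason to pair libraries by replicate number. Deviations of same-numbered libraries correlated at 0.501 for replicate 1 of the 2 mutant genotypes, but at -0.317 and -0.003 for their replicates 2 and 3, and at -0.095 to 0.051 with CD38+/+. With the replicate block, 0 of the 78 were called in CD38-/- against CD38+/+, beside 2 of 11722 genes, and Mrpl41 had -0.94. With the block and the length and GC trend removed, 0 of the 78 were called, beside 2 of 11709 genes. In that fit Mrpl41 had -1.03 and the large-subunit median was -0.32. Between the mutants, the block gave Mrpl41 -0.039, and -0.12 with the trend removed, where 47 of the 78 genes were negative. Of the recomputed calls, subunit medians and values of Mrpl41, the other 234 stayed on their side of the threshold or moved by less than the spread between libraries.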
